A study of Mus musculus with 6 samples.

Results

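The receptors of selective autophagy and mitophagy were examined in M II oocytes of aged mice matured in vitro with or without quercetin. The 10 genes, *Nbr1*, *Sqstm1*, *Optn*, *Tax1bp1*, *Calcoco1*, *Bnip3*, *Bnip3l*, *Fundc1*, *Phb2* and *Pink1*, were taken by symbol from the 53465 genes of the count table. The control group held 3 pools of oocytes from female Kunming (KM) mice aged 9-10 months that were matured without quercetin. The quercetin group held 3 pools from mice of the same strain, sex and age, matured with 10 μM quercetin, a plant flavonol. Culture lasted 16 h, and each pool combined 15 oocytes of 3 mice, so a pool value is an average over animals. Kunming is an outbred stock, and no young mice were among these 6 pools, so the comparison is of treatment within aged oocytes and not of age. The question was whether the treatment went with different counts of receptor RNA, and whether *Nbr1* differed from the other receptors within a pool. The library kit primes on poly(A) tails, so the counts do not separate the amount of an RNA from the state of its tail.

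Selective autophagy delivers chosen cargo, such as protein aggregates or damaged mitochondria, to the lysosome. Soluble receptors bind ubiquitin on the cargo and members of the LC3 and GABARAP families on the growing autophagosome membrane, and mitochondrial receptors carry the LC3-binding motif themselves on the organelle. In oocytes, whose mitochondria all come from the mother, this clearance is studied as one route by which damaged mitochondria are removed.

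The libraries totalled 7880467 to 9938743 counts, so that 3 counts, the floor used here, corresponded to 0.328 to 0.375 CPM, the counts scaled to a common library total. Levels are given as CPM after TMM scaling, edgeR's adjustment of library totals for differences in composition. All 10 oocyte markers passed the filter on low counts, at a summed 24200 to 27600 CPM in control and 25500 to 29300 CPM in quercetin pools. Within that list *Zp2* ran from 1045 to 12980 counts between pools, and *Ooep* averaged 716 ± 241 CPM in control and 379 ± 222 CPM in quercetin oocytes with overlapping groups (log2 fold change -0.92, edgeR adjusted p = 0.988 by Benjamini-Hochberg). Of 12 cumulus and granulosa cell markers, *Ptx3*, *Amh* and *Foxl2* were at 0 in every pool, and the list summed to 70.2 to 86.0 CPM in control and 91.3 to 96.4 CPM in quercetin pools. The sum was thus higher in each quercetin pool, but the single markers were not uniformly so. Most of it was *Cyp19a1*, at 64.1 ± 5.31 CPM in control and 74.4 ± 1.42 CPM in quercetin pools. *Kitl* averaged 8.08 and 12.2 CPM (edgeR unadjusted p = 0.0209, adjusted p = 0.988 by Benjamini-Hochberg) and *Has2* 4.18 and 4.33 CPM. Of the 4 markers tested, *Cyp19a1* and *Kitl* did not overlap between groups, both higher with quercetin, as were 5.42% of all tested genes. None of the 4 was separated with quercetin lower. *Ptgs2*, *Fshr* and *Star* were lower on average with quercetin, and *Tnfaip6*, *Lhcgr* and *Inha* higher, all at low counts. *Tnfaip6* and *Lhcgr* had 0 counts in each control pool and 2 to 8 and 2 to 4 counts in the quercetin pools. The part of these markers in the receptor values was not tested. The 6 blood and macrophage markers summed to 3.25 to 4.07 and 3.61 to 4.22 CPM. Pools did not sort by treatment: Pearson correlations of log2 CPM across genes were 0.954 to 0.970 within groups and 0.953 to 0.971 between them. On the first principal component, with 32.4% of the variance, control pool 2 and quercetin pool 3 lay together at -31.3 and -30.8, and quercetin pools 1 and 2 at the other end at 37.9 and 30.9. Values without each pool are therefore given where they change a result.

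The RNA of *Nbr1* (ENSMUSG00000017119), which lies on chromosome 11 from 101552149 to 101581951 on the plus strand of GRCm38 and has 21 annotated transcripts, was measured in the study's qPCR with the following primers, printed in lower case with no capitals. They are shown because they mark which transcripts that assay reads.
Nbr1 forward: gcaaggaaatcagctacagatgc
Nbr1 reverse: atcccaagactctcaccagtg
Both primers matched 9 of the 21 transcripts with a product of 149 bases, whereas the counts cover all exons of the gene, 6871 bases in all.

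NBR1 is a soluble receptor that binds ubiquitin and LC3 and takes part in the clearance of aggregates and peroxisomes. *Nbr1* had 32.1, 29.5 and 37.6 CPM without quercetin and 44.5, 122 and 120 with it. The groups did not overlap, but quercetin pool 1 lay close to the controls and pools 2 and 3 far above them. The mean was 33.1 ± 4.13 CPM in control and 95.5 ± 44.3 CPM in quercetin oocytes (SD, n = 3 pools each), a fitted fold of 2.89 with a 95% interval of 1.68 to 4.99. The unadjusted p was 0.00171 and the edgeR quasi-likelihood p after Benjamini-Hochberg adjustment over all 11842 tested genes was 0.883. *Nbr1* stood at rank 23 by p, and its absolute log2 fold change was above that of 99.6% of tested genes. The study names *Nbr1* among the up-regulated genes of these same data and reports that qPCR of selected genes showed similar trends. These ranks are therefore not those of a gene chosen without its result. In bulk pools, a difference in how many cells carry an RNA and in the RNA per cell cannot be told apart. The quasi-likelihood p and the 95% interval set the group difference against a spread between these pools that is moderated by that of the other tested genes. They therefore do not rest on the spread of *Nbr1* alone. Its own SD of log2 CPM among quercetin pools was 0.832, above 92.0% of tested genes. Nothing in the labels says whether the pools were cultured on separate days, so it is not known whether that spread includes differences between days.

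The call on *Nbr1* rested on the test and on 1 pool. No gene passed an adjusted p under 0.05 with edgeR's quasi-likelihood test (0% of 11842), of which 477 had an unadjusted p under 0.05, and none passed with limma-voom. DESeq2 called 17 of the 8389 genes to which it gave an adjusted p (0.203%), among them *Nbr1* at an adjusted p of 0.00361. The likelihood ratio test of edgeR called 18 genes (0.152%), among them *Nbr1* at a Benjamini-Hochberg adjusted p of 0.0345. Without quercetin pool 1, the quasi-likelihood test of edgeR called 7 of 12374 genes (0.0566%), and *Nbr1* was among them with a log2 fold change of 1.87 and a Benjamini-Hochberg adjusted p of 0.0223.

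Of the 10 receptors, 9 had enough counts to be tested. None passed the adjusted threshold with edgeR's quasi-likelihood test and *Nbr1* alone had an unadjusted p under 0.05, where 4.03% of all tested genes had one (2.14% higher and 1.89% lower with quercetin). DESeq2 and the likelihood ratio test each called 1 receptor after adjustment, *Nbr1*, and limma-voom called 0. The groups did not overlap for 3 of the 10, *Nbr1*, *Tax1bp1* and *Bnip3*, each higher with quercetin (10.6% of all tested genes did not overlap, 5.42% with the quercetin pools higher and 5.17% with them lower). By library size only, without TMM scaling, *Tax1bp1* overlapped and 2 remained, *Nbr1* and *Bnip3*. The tested receptors had a median log2 fold change of 0.132, and the 8 other than *Nbr1* 0.0791, beside -0.0258 over all tested genes. Without quercetin pool 3, *Nbr1*, *Optn*, *Calcoco1* and *Bnip3*, 4 in all, had an unadjusted p under 0.05, and so did 12.8% of all tested genes.

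**Figure D1:**
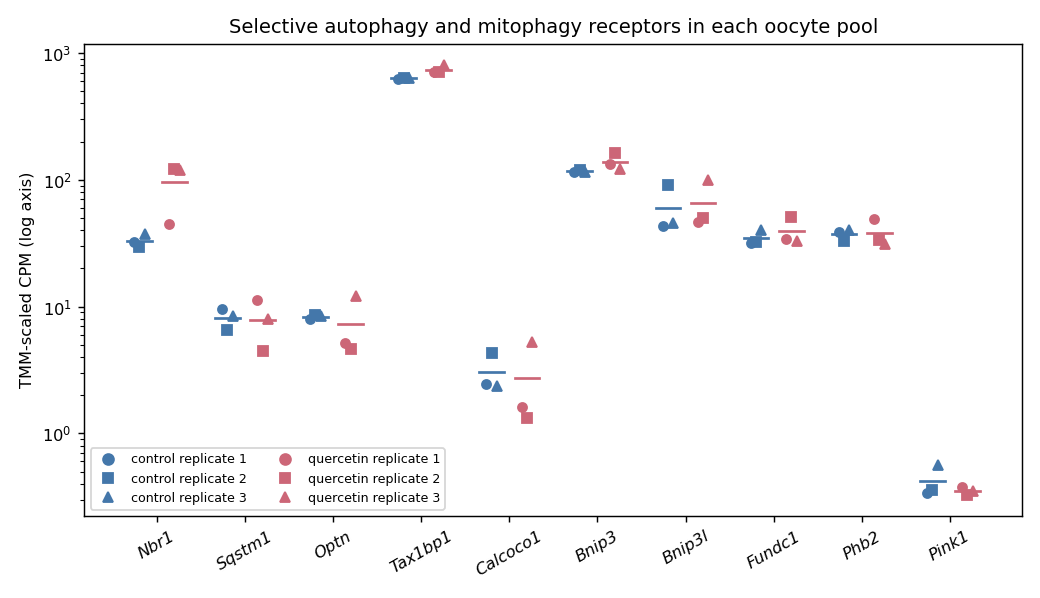
TMM-scaled CPM (log axis) of the 10 receptor genes in the 3 control pools (blue) and 3 quercetin pools (red), with the replicate number shown by the marker and the group mean as a bar. *Nbr1* runs from 29.5 to 37.6 CPM without quercetin and reaches 122 and 120 CPM in treated pools 2 and 3, while 7 of the 10 receptors overlap between groups.

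**Figure D2:**
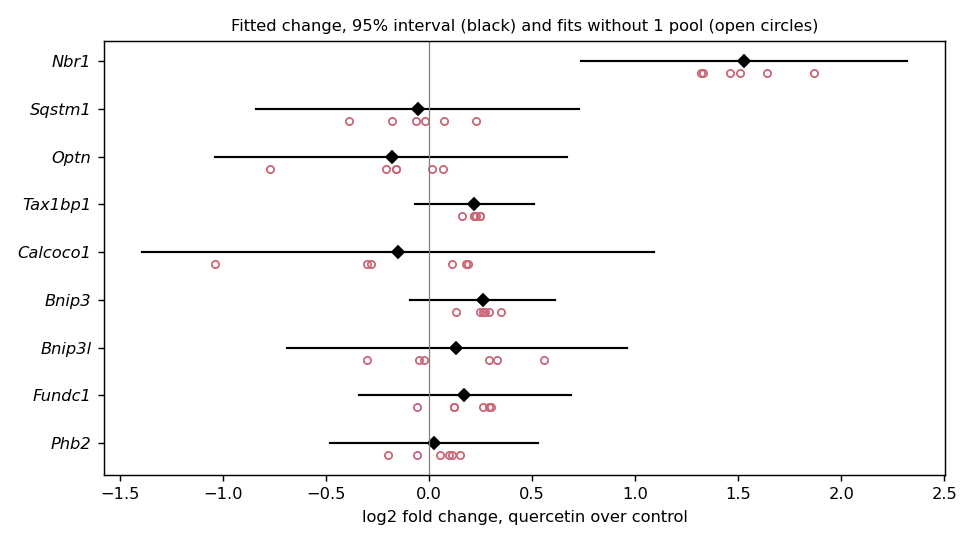
Log2 fold change, quercetin over control, of the 9 tested receptors from edgeR's quasi-likelihood fit (diamonds) with 95% intervals (lines), and the same value with 1 pool left out (open circles). The interval of *Nbr1* lies above 0 and those of the other 8 cover 0.

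Among the other soluble receptors, *Tax1bp1* was by far the most abundant. TAX1BP1 binds ubiquitylated cargo and also regulates inflammatory signalling. *Tax1bp1* (ENSMUSG00000004535, chromosome 6 from 52713729 to 52766780) had 629, 631 and 633 CPM without quercetin and 704, 704 and 798 with it. The control pools were nearly equal and each quercetin pool was higher, at means of 631 ± 1.84 and 735 ± 54.1 CPM (exact permutation, two-sided p = 0.1, below which 3 pools against 3 cannot go). The fitted log2 fold change was 0.22 with a 95% interval of -0.07 to 0.51, and an edgeR adjusted p (Benjamini-Hochberg) of 0.988. By library size only, its pools held 648, 668 and 633 CPM without quercetin and 666, 647 and 838 with it, so that the separation depended on the scaling.

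*Sqstm1*, *Optn* and *Calcoco1* were low and their groups overlapped. SQSTM1 gathers ubiquitylated proteins into condensates and is itself degraded with them. *Sqstm1* (ENSMUSG00000015837, chromosome 11 from 50199366 to 50210827) had 85, 55 and 75 counts without quercetin and 90, 41 and 68 with it, with quercetin pool 1 the highest of all and quercetin pool 2 the lowest. Its log2 fold change was -0.0532 with a 95% interval of -0.84 to 0.73, so that a change of the size fitted for *Nbr1* lies outside the interval. Of its exon length, 17.3% overlaps *Mrnip* on the opposite strand, which had 96 to 115 counts, and without a stated strand setting reads there cannot be assigned to either gene.

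Optineurin, encoded by *Optn*, is recruited to damaged mitochondria and works with the kinase TBK1. *Optn* (ENSMUSG00000026672, chromosome 2 from 5020642 to 5064051) had 71, 71 and 75 counts without quercetin and 41, 42 and 104 with it. Quercetin pools 1 and 2 were below all controls and quercetin pool 3 above them, and the log2 fold change was -0.18 with a 95% interval of -1.04 to 0.67. CALCOCO1 is a receptor for the endoplasmic reticulum and the Golgi apparatus. *Calcoco1* (ENSMUSG00000023055, chromosome 15 from 102706777 to 102722178) had 22, 36 and 21 counts without quercetin and 13, 12 and 45 with it. The arrangement was that of *Optn*, with quercetin pools 1 and 2 lowest and pool 3 highest, and the log2 fold change was -0.15 with a 95% interval of -1.39 to 1.09. With quercetin pool 3 left out, the log2 fold change was -0.77 for *Optn* and -1.04 for *Calcoco1*, both among the 4 receptors then under an unadjusted p of 0.05, and neither passed after adjustment.

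The mitochondrial receptors overlapped or nearly overlapped between groups. BNIP3 sits in the outer mitochondrial membrane and is a known target of hypoxia signalling. *Bnip3* (ENSMUSG00000078566, chromosome 7 from 138890836 to 138909519) had 115, 119 and 116 CPM without quercetin and 133, 164 and 121 with it. The 3 treated pools were the highest, with quercetin pool 3 only just so, at means of 117 ± 2.12 and 139 ± 21.9 CPM (two-sided exact permutation test, p = 0.1). The log2 fold change was 0.26 with a 95% interval of -0.09 to 0.61, and the edgeR adjusted p (Benjamini-Hochberg) was 0.988.

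The separation of *Bnip3* did not hold when genes that share part of its sequence on either strand were added. Of the distinct 31-base words of its transcripts, 57.0% also occur in 6 other genes, on the same or the opposite strand. Those with the most counts share it only in antisense. They were *Gm45507*, which covers 22.3% of its exon length and had 168 to 330 counts, and the lincRNA *AC160336.1* on chromosome 14 with 103 to 145. Summed with these 6 genes, the level was 167, 171 and 176 CPM without quercetin and 198, 239 and 170 with it. Quercetin pool 3 then fell among the controls (two-sided exact permutation test, p = 0.3). *Bnip3* alone held 66.3% to 71.3% of the summed counts.

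BNIP3L, also called NIX, is the receptor through which reticulocytes lose their mitochondria. *Bnip3l* (ENSMUSG00000022051, chromosome 14 from 66985239 to 67008877) had 43.6, 90.4 and 45.6 CPM without quercetin and 46.5, 50.4 and 100 with it. Control pool 2 and quercetin pool 3 were each about as far above the rest of their group, at 2.02 and 2.06 times the mean of the other pools, and the groups overlapped. The log2 fold change was 0.13 with a 95% interval of -0.69 to 0.96. A processed pseudogene on chromosome 12, *Bnip3l-ps*, shares 23.7% of its 31-base words and had 711, 759 and 787 counts without quercetin and 715, 1056 and 726 with it. The gene itself held 30.4% to 54.0% of the counts of the pair, with control pool 2 and quercetin pool 3 highest at 49.8% and 54.0%. As a sum, the pair had 123, 181 and 134 CPM without quercetin and 136, 166 and 185 with it (two-sided exact permutation test, p = 0.4).

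FUNDC1 is an outer membrane receptor whose binding to LC3 is set by phosphorylation. *Fundc1* (ENSMUSG00000025040, chromosome X from 17556564 to 17572325) had 32.0, 32.4 and 40.4 CPM without quercetin and 34.3, 51.1 and 32.7 with it. Only quercetin pool 2 was above all controls, and the log2 fold change was 0.17 with a 95% interval of -0.34 to 0.69. None of its 31-base words occurs in another gene. Prohibitin 2, encoded by *Phb2*, is an inner membrane protein that binds LC3 once the outer membrane ruptures. *Phb2* (ENSMUSG00000004264, chromosome 6 from 124712336 to 124716950) had 38.7, 32.8 and 40.5 CPM without quercetin and 49.3, 33.7 and 31.1 with it. Quercetin pools held both the highest and the lowest value, and the log2 fold change was 0.0257 with a 95% interval of -0.48 to 0.53. Its sign was negative by library size only, at -0.063, and with limma-voom, at -0.00395.

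PINK1 is the kinase that marks depolarised mitochondria with phosphorylated ubiquitin. *Pink1* (ENSMUSG00000028756, chromosome 4 from 138313409 to 138326307) had 3, 3 and 5 counts without quercetin and 3, 3 and 3 with it. Every pool was at or just above the floor of 3 counts, so the gene was not tested and no fold is given.

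Per kilobase of exon, the receptors spanned a wide range, and *Nbr1* was in the lower part of it in control oocytes. *Tax1bp1* led with 63.2 ± 0.184 CPM per kb, followed by *Bnip3* with 51.5 ± 0.936, *Bnip3l* with 15.5 ± 6.85, *Fundc1* with 14.8 ± 2.01 and *Phb2* with 10.0 ± 1.08 (SD, n = 3). *Nbr1* came at rank 6 with 4.81 ± 0.601 CPM per kb, ahead of *Sqstm1* with 2.43 ± 0.439, *Optn* with 2.21 ± 0.0807, *Calcoco1* with 0.531 ± 0.192 and *Pink1* with 0.157 ± 0.0463. Neighbours in this order whose control pools overlapped were *Bnip3l* with *Fundc1* and *Sqstm1* with *Optn*. In quercetin pools 1 to 3 *Nbr1* had 6.47, 17.8 and 17.5 CPM per kb. It averaged 13.9 ± 6.44 CPM per kb at rank 5, between *Fundc1* with 16.7 ± 4.31 and *Phb2* with 10.2 ± 2.65, and its pools overlapped those of both. It kept rank 6 in quercetin pool 1, as in each control pool, and stood at rank 4 in quercetin pools 2 and 3. *Tax1bp1* and *Bnip3* overlapped among quercetin pools, and *Bnip3* was the higher of them in quercetin pool 2, at 72.3 against 70.4 CPM per kb. These values divide by all exons, 9991 bases for *Tax1bp1* and 2265 for *Bnip3*. The longest transcripts have 4249 and 1756 bases, so the order of these genes in that pool depends on the length used.

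**Figure D3:**
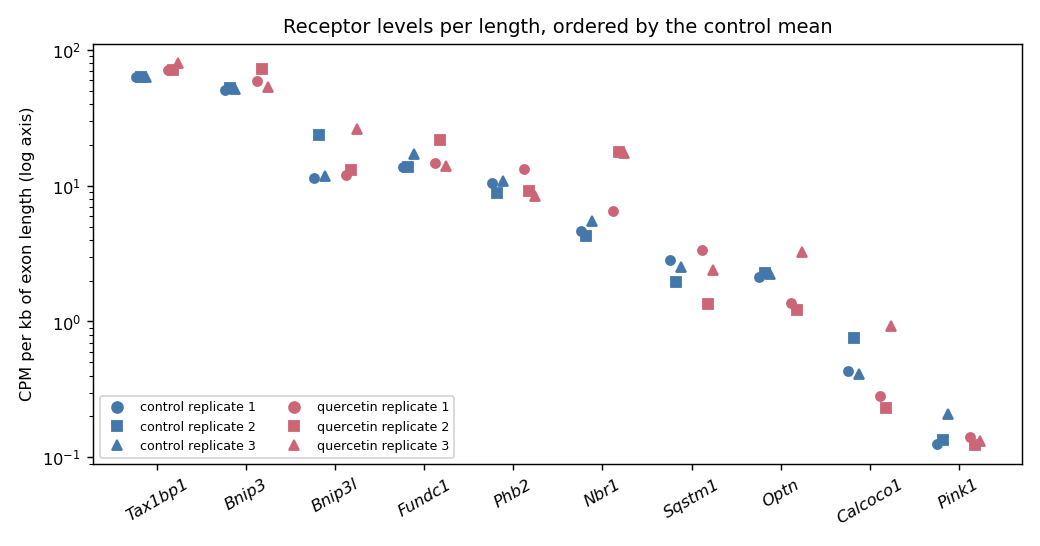
TMM-scaled CPM per kilobase of exon length (log axis) of the 10 receptors in each pool, ordered by the control mean, with control pools in blue and quercetin pools in red. *Tax1bp1* and *Bnip3* lie above 50 CPM per kb in every pool, and *Nbr1* moves from 4.29 to 5.47 CPM per kb in control pools to 6.47, 17.8 and 17.5 in quercetin pools 1, 2 and 3.

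A ratio within a pool does not depend on how pools are scaled. *Nbr1* made up 3.53%, 3.09% and 4.03% of the counts on the 10 receptors without quercetin and 4.31%, 10.7% and 9.78% with it. The Wilson 95% intervals were 3.63% to 4.47% in control pool 3, the highest control, and 3.90% to 4.77% in quercetin pool 1, so that these overlap, whereas quercetin pools 2 and 3 lay at 10.2% to 11.4% and 9.23% to 10.4%. These intervals take reads as independent and do not cover the spread between pools. The reads were amplified and carry no molecular identifiers, so the intervals may be too narrow even for counting error. *Tax1bp1* held 62.0% to 69.1% of the receptor counts, which are not corrected for length.

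The log2 ratio of *Nbr1* counts to the summed counts of the other 9 receptors was -4.77, -4.97 and -4.57 without quercetin and -4.47, -3.05 and -3.20 with it. All quercetin pools were above all control pools, with quercetin pool 1 near the controls, and the means of -4.77 ± 0.198 and -3.58 ± 0.777 differed by 1.2 (two-sided exact permutation test, p = 0.1). Without *Tax1bp1* in the sum, the difference was 1.23. The other 9 receptors together summed to 900 ± 23.9 CPM in control and 1040 ± 64.3 CPM in quercetin pools after TMM scaling. Unlike the ratios, this sum depends on the scaling. Most of it was *Tax1bp1*, whose groups overlapped by library size only.

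Against single receptors, the quercetin pools lay above the control pools for 7 of 9 ratios. With each of the 11841 other tested genes as the denominator in turn, 63.4% of ratios separated in this way, so the count is near what *Nbr1* gives against genes in general. The difference in log2 ratio was 1.72 against *Optn*, 1.18 against *Tax1bp1*, 1.77 against *Calcoco1*, 1.15 against *Bnip3*, 1.27 against *Bnip3l* and 1.24 against *Fundc1* (two-sided exact permutation test, p = 0.1 each). The remaining one of the 7 was *Pink1*, whose counts are at the floor, and no difference is given for it. Pools overlapped for the ratio to *Sqstm1*, with a difference of 1.53 (exact permutation p = 0.3), and to *Phb2*, with 1.40 (exact permutation p = 0.2). In both, the overlap came from quercetin pool 1, at 1.98 for *Sqstm1* and -0.15 for *Phb2*, beside highest controls of 2.15 and -0.11. The 9 ratios share the *Nbr1* counts and are not independent of each other.

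**Figure D4:**
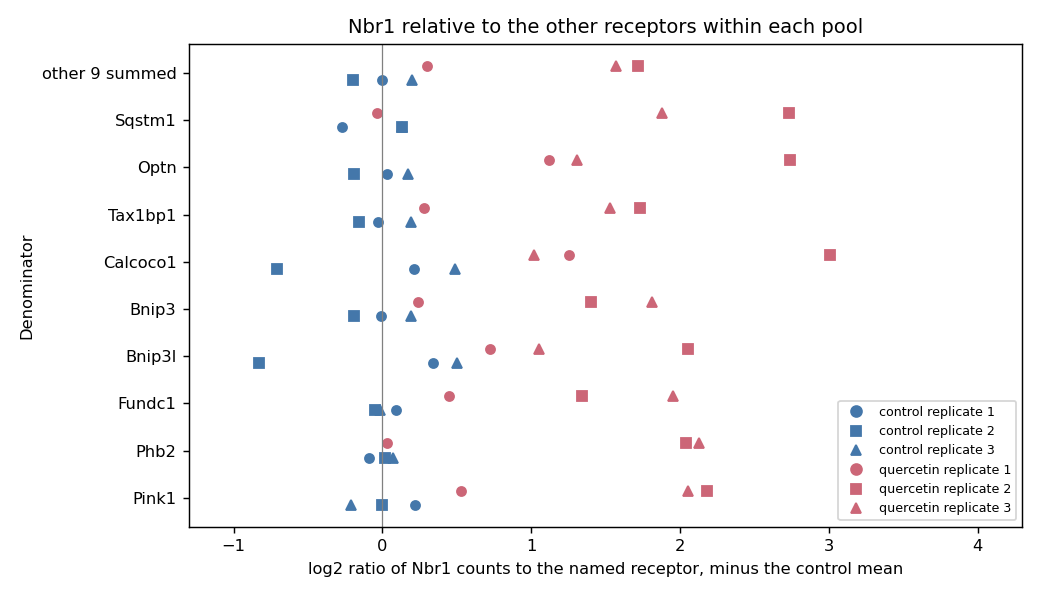
Log2 ratio of *Nbr1* counts to the summed other 9 receptors and to each single receptor in the same pool, minus the mean of the 3 control pools (control blue, quercetin red, marker by replicate number). Quercetin pools 2 and 3 lie to the right of every control pool in each row, and quercetin pool 1 lies within the controls for *Sqstm1* and *Phb2*.

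The spread among quercetin pools was larger than among control pools for each tested receptor. The SD of log2 CPM was larger in the quercetin group for 9 of 9, and for 60.3% of all 11842 tested genes. Its median over the tested receptors was 0.176 in control and 0.605 in quercetin pools, beside 0.249 and 0.312 over all tested genes. For *Nbr1* it was 0.176 and 0.832, above 33.2% and 92.0% of tested genes. *Optn* had 0.0518 and 0.749, and *Tax1bp1* 0.00421 and 0.104. Quercetin pool 3 stood above the mean of quercetin pools 1 and 2 by a factor of 2.51 in *Optn*, 3.60 in *Calcoco1* and 2.06 in *Bnip3l*. The larger spread was not tested.

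The first exon region of *Nbr1* faces that of *Brca1*, a DNA repair gene, with annotated ends 194 bases apart on opposite strands. *Brca1* (chromosome 11 from 101488764 to 101551955) had 809, 650 and 787 counts without quercetin and 635, 670 and 820 with it. Its groups overlapped, with quercetin pools holding both the highest and the lowest CPM, and its log2 fold change was -0.0452 with a 95% interval of -0.41 to 0.32. On the other side, 291 bases downstream, *Tmem106a* had 11, 17 and 8 counts without quercetin and 4, 5 and 5 with it. Its quercetin pools were all below the controls in CPM (two-sided exact permutation test, p = 0.1), and it was below the filter of the fit.

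Promoter windows of RefSeq on GRCm38.p6, from 250 bases before to 50 after a start, were given for 9 of the 10 receptors, in 11 windows. The windows with a searched motif of the 3 genes whose groups did not overlap are shown, so that the letters they hold can be compared. Capitals mark CACGTG, the E-box core read by TFEB-type factors, ACGTG, the core of the hypoxia response element, which also lies inside CACGTG, and TGACNNNGC, the core of the antioxidant response element, on either strand. The *Nbr1* window is chr11:101551857-101552156 on the plus strand, that of *Tax1bp1* chr6:52713915-52714214 on the plus strand and that of *Bnip3* chr7:138909457-138909756 on the minus strand.
Nbr1 window 1: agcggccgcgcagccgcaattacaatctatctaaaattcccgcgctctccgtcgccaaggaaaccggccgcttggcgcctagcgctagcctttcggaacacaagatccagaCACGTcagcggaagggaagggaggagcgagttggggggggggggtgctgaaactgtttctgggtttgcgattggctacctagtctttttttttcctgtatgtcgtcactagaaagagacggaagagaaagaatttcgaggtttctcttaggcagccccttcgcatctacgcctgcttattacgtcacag
Tax1bp1 window 2: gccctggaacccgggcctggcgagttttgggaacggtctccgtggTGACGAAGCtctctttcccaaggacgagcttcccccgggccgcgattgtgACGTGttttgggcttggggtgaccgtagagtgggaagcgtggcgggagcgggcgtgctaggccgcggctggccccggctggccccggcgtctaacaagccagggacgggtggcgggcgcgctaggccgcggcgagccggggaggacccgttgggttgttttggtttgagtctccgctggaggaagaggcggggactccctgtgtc
Bnip3 window 1: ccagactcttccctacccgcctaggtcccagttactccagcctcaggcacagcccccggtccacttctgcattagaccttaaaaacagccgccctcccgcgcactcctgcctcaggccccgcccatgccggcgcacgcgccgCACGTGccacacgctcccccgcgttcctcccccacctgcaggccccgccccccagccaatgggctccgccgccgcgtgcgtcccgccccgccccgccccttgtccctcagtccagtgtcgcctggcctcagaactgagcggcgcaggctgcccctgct
CACGTG occurred in 1 of the 11 receptor windows (*Bnip3*), where 7.15% of all 32851 windows hold it. ACGTG occurred in 4 of the 11 (1 each of *Nbr1*, *Tax1bp1*, *Bnip3* and *Phb2*), where 19.6% of windows hold it, and TGACNNNGC in 1 (*Tax1bp1*), where 12.4% do. The *Nbr1* window overlaps that of *Brca1* from 101551906, so both genes carry the same ACGTG match. A match describes these letters only and is not evidence of binding.

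The rest of the pathway, in lists of 89 genes of which 75 were tested, was near the background. An unadjusted p under 0.05 was found for 1 higher and 2 lower genes (4.0% of those tested, beside 4.03% of all genes), and the groups did not overlap for 2 higher and 4 lower (8.0%, beside 10.6%). The median log2 fold change was -0.0378. *Ulk1*, the kinase that starts autophagosome formation, had 150, 131 and 156 counts without quercetin and 100, 103 and 103 with it. Each quercetin pool was lower, at a log2 fold change of -0.48 (standard error 0.20, unadjusted p = 0.0376, edgeR adjusted p = 0.988 by Benjamini-Hochberg). It was the only one of 29 tested genes of the core machinery under that threshold. DESeq2 and the likelihood ratio test put 0 of them there, beside 3.24% and 3.54% of all tested genes. With any single pool left out the count was 0, except without quercetin pool 3, where it was 3 of the core genes beside 12.8% of all tested genes. The median of the 29 was -0.0683.

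Of 14 other tested receptors, *Ncoa4* and *Ccpg1* had an unadjusted p under 0.05, in opposite directions. NCOA4 delivers ferritin to autophagosomes. *Ncoa4* had 602, 539 and 565 counts without quercetin and 620, 1474 and 715 with it, most of the difference being in quercetin pool 2, with a log2 fold change of 0.72 (standard error 0.27, unadjusted p = 0.0248, edgeR adjusted p = 0.988 by Benjamini-Hochberg). CCPG1 is a receptor for the endoplasmic reticulum. *Ccpg1* had 31, 27 and 73 counts without quercetin and 22, 14 and 14 with it, with control pool 3 far above the others, at a log2 fold change of -1.33 (standard error 0.46, unadjusted p = 0.0169, edgeR adjusted p = 0.988 by Benjamini-Hochberg). Without control pool 3, 0 of the 14 had an unadjusted p under 0.05 (3.51% of all tested genes), and without quercetin pool 2 only 1 had (2.64%).

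The partners of the receptors on the membrane were unevenly expressed. Of the 5 genes of the LC3 and GABARAP families 3 were tested, with a median log2 fold change of -0.0653 and 0 with an unadjusted p under 0.05. *Gabarapl2* had 451, 425 and 610 counts without quercetin and 451, 567 and 493 with it, and *Map1lc3b* 484, 488 and 494 without quercetin and 216, 710 and 476 with it. Both groups of *Map1lc3b* overlapped, with quercetin pools 1 and 2 at the ends. *Map1lc3a* varied most, from 38 to 195 counts in control and from 24 to 102 in quercetin pools. The 17 tested mitophagy regulators had a median of 0.0837 and the 12 tested lysosome and TFEB family genes one of 0.093, with 0 under that threshold in either list by edgeR's quasi-likelihood test, DESeq2, the likelihood ratio test or limma-voom. *Tfeb* itself was at 0 counts in every pool.

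**Figure D5:**
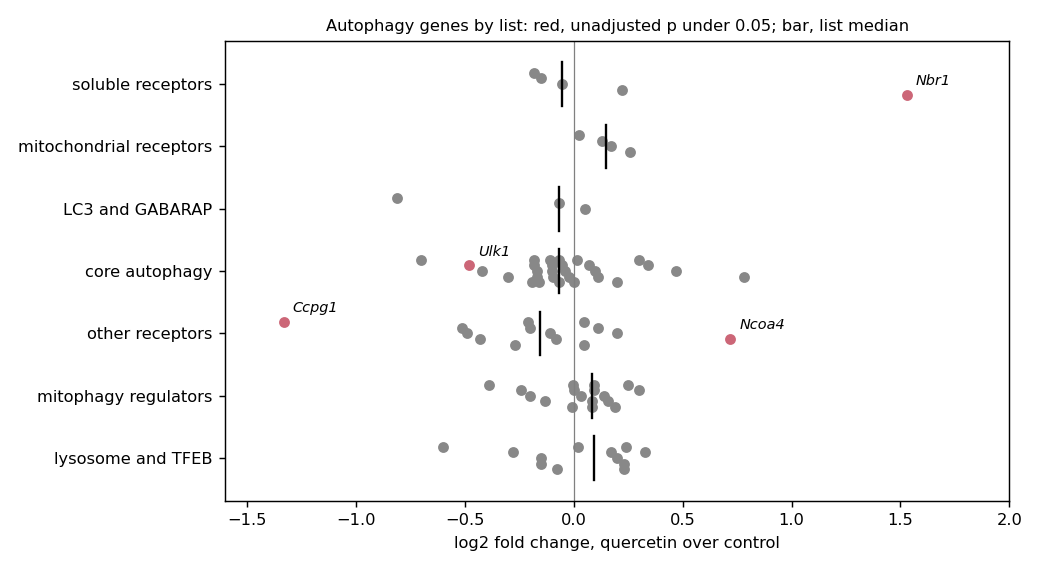
Log2 fold change, quercetin over control, of each tested gene in the receptor groups and the 5 pathway lists, with the list median as a bar and genes with an unadjusted p under 0.05 in red. *Nbr1* at 1.53, *Ncoa4* at 0.72, *Ulk1* at -0.48 and *Ccpg1* at -1.33 are the red points, and the list medians lie near 0.

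The genes whose log2 CPM followed that of *Nbr1* most closely over the 6 pools were found among 9928 genes with a mean of at least 20 counts. The closest were *Apoo-ps* with a Pearson r of 0.983, *4833420G17Rik* with 0.98, *Abca13* with 0.979, *Fam107b* with 0.978, *Gm10774* with 0.976, *Hmga2* with 0.972, *Rnf10* with 0.971, *Hacd2* with 0.97, *Lrch1* with 0.969 and *Gm10179* with 0.96. These are descriptions over 6 pools and were not tested. A Pearson r does not measure the size of a change. Among those that passed the filter of the fit, log2 fold changes ran from 0.06 (*Hacd2*) to 0.59 (*Abca13*), beside 1.53 for *Nbr1*. *Gm10774* and *Hmga2* were below that filter. The closest receptor was *Tax1bp1* with 0.848. *Hmga2*, a chromatin protein of early development, had 6, 4 and 5 counts without quercetin and 4, 313 and 196 with it. *Gm10774*, a processed pseudogene, had 1, 1 and 1 without quercetin and 1, 100 and 68 with it. In both, quercetin pools 2 and 3 carried nearly all counts and quercetin pool 1 was at the control level. Both genes reached the mean of 20 counts only through quercetin pools 2 and 3, where *Nbr1* is also high. Their r therefore rests largely on those pools. *Abca13*, a lipid transporter gene on chromosome 11 like *Nbr1*, had 270, 232 and 314 counts without quercetin and 280, 513 and 423 with it.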

How the data were processed

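RNA of 6 oocyte pools was amplified with the Smart-seq HT kit, which primes on poly(A) tails, and sequenced. The authors deposited raw counts per Ensembl gene (53465 genes), not normalized and not pooled. The study's methods name Hisat2 and GRCm38, and the submitters' processing notes name CASAVA 1.8 and TopHat2 2.0.6 with mm10 and GRCm38. The counting program, its strand setting and its treatment of reads that match several genes are not given in the sources used here, which matters for *Bnip3*, *Bnip3l* and *Sqstm1*.

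Genes were kept with filterByExpr at a minimum count of 10 and tested with edgeR 4.0.16 (glmQLFit and glmQLFTest, TMM scaling, R 4.3.3), and p-values were adjusted by Benjamini-Hochberg across the 11842 genes tested. Alternatives used DESeq2 1.42.0, the likelihood ratio test, limma-voom (limma 3.58.1), other scalings and filters, each pool left out and the replicate number as a block. Same-numbered pools deviated from their group means with correlations of 0.296, 0.101 and -0.0303, and pools of unlike number with -0.299 to 0.176. Deviations from a mean of 3 pools constrain each other, so these values cannot decide whether pools were paired. The labels do not state pairs, and the main fit took none. Intervals of fold changes are at 95%. Exact permutation tests and Wilson intervals were made with scipy 1.17.1, and a pseudocount of 0.5 was added in ratios. The script was tested on simulated data. Gene lengths, overlaps and shared words of 31 bases came from GENCODE transcripts on GRCm38, and symbols were found for 53274 genes. The genes named were the receptors, the genes flanking *Nbr1*, up to 3 genes per list with the smallest unadjusted p under 0.05, the 10 genes most correlated with *Nbr1*, and overlapping genes. Others, such as the LC3 family, were named for their role, with values seen. The receptors and all lists were chosen with earlier results of these data known.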

Additional observations from a re-analysis of the deposited data

How the results depend on the processing

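For *Nbr1*, the log2 fold change was 1.55 with DESeq2, 1.53 with the likelihood ratio test and 1.87 without quercetin pool 1, all past the adjusted threshold, and it ran from 1.32 to 1.87 with 1 pool left out. The number of receptors past an adjusted p under 0.05 was 1 with DESeq2 and with the likelihood ratio test, and 0 to 1 with 1 pool left out. With 1 pool left out, the number at an unadjusted p under 0.05 ran from 1 to 4 and the number without overlap from 3 to 5. Both were highest without quercetin pool 3. In that case *Nbr1*, *Optn*, *Tax1bp1*, *Calcoco1* and *Bnip3* did not overlap, and neither did 31.7% of all tested genes. That share was 16.2% to 31.7% with 1 pool left out and 10.6% with every pool. By library size only, 2 receptors did not overlap, beside 11.2% of all tested genes. The difference of the log2 ratio of *Nbr1* to the other receptors ran from 0.93 to 1.64.

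Directions of the other receptors turned as single pools were left out, with log2 fold changes from -0.39 to 0.23 for *Sqstm1*, -0.77 to 0.0669 for *Optn*, -1.04 to 0.19 for *Calcoco1*, -0.30 to 0.56 for *Bnip3l*, -0.0562 to 0.30 for *Fundc1* and -0.20 to 0.15 for *Phb2*. *Phb2* was also -0.00395 with limma-voom and -0.063 by library size only, a scaling that moved the median of all genes to -0.11. *Tax1bp1* (0.16 to 0.25) and *Bnip3* (0.13 to 0.35) kept their sign. Summed with the genes that share sequence, an alternative added after seeing the data, *Bnip3* had 0.24 and *Bnip3l* 0.15.

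At an unadjusted p under 0.05, the core machinery had 0 genes with DESeq2 (3.24% of all tested genes) and with the likelihood ratio test (3.54%). It also had 0 with at least 1 count in total as the filter (3.19%). With 1 pool left out it had 0 to 3, most without quercetin pool 3 (12.8%). With 1 pool left out, the count was 0 to 1 in the LC3 and GABARAP families and 0 to 3 in the other receptors, both highest without control pool 1 (3.93% of all tested genes), and 0 to 1 in the mitophagy regulators and 0 to 2 in the lysosome list, both highest without quercetin pool 3 (12.8% of all tested genes). For the genes flanking *Nbr1* it was 1 with at least 1 count in total (3.19% of all tested genes). It was 0 to 1 with 1 pool left out, highest without control pool 3 (3.51%). With the longest transcript as gene length, *Nbr1* was at rank 4 in quercetin oocytes. The cause of these changes was not tested.

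With the replicate number as a block, the log2 fold change of *Nbr1* was 1.41 and no receptor call changed. The core machinery then had 0 genes at an unadjusted p under 0.05, beside 4.15% of all tested genes. At this depth *Pink1* was too low for a difference to be detectable.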
